A study of Mus musculus with 6 samples.

Results

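The genes described here fold, translocate and quality-control proteins in the endoplasmic reticulum (ER) of bone marrow (BM) neutrophils, or sense a shortage of folding capacity there. They were listed by symbol for their known roles, with no measured value in the rule but with earlier results of these data known. All 42 were found among the 38887 genes of the count table and among the 12259 genes that passed the filter on low counts. By role they comprise 15 chaperones and folding catalysts, 6 genes of ER-associated degradation, 10 stress sensors and stress transcription factors and 11 genes of the translocon, the translocon-associated protein (TRAP) complex and signal peptidase. RNA was sequenced from Ly6G+ BM cells of naïve mice (2 libraries) and of tumor-bearing (TB) mice 1 week (2 libraries) and 3 weeks (2 libraries) after intravenous injection of LL2 cells, a Lewis lung carcinoma line that carried luciferase and formed lesions in the lung. The naïve mice received no tumor, the cells of every group were selected with Ly6G beads, and the series' labels give neither strain nor age. The labels do not state whether a library holds 1 mouse or a pool, so the spread between the 2 libraries of a group may be technical in part. The comparisons ask whether ER stress genes differed between control, one-week and three-week LL2 mice. By pathway analysis the study reports EIF2 signaling, which it links to ER stress, as raised at both weeks over control. It also reports ER stress pathways and genes regulated by the transcription factors XBP1 and ATF4 as higher at 3 weeks than at 1. The one-week cells are described there as having raised ER stress response genes.

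The ER receives nascent secretory and membrane proteins through the SEC61 channel, where signal peptidase removes the signal sequence and chaperones with disulfide isomerases fold the chain. Chains that fail to fold are pulled back into the cytosol and degraded, a route called ER-associated degradation. When unfolded chains accumulate, the membrane proteins IRE1 (the product of Ern1), ATF6 and PERK (the product of Eif2ak3) start the unfolded protein response. Through XBP1 and ATF6 it raises chaperone and degradation genes, and through PERK it slows translation and induces ATF4 and CHOP (the product of Ddit3). Neutrophils make most of their granule proteins as precursors in the marrow and carry little rough ER once mature.

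The promoters of the folding genes are shown first because a shared sequence in them, the ER stress response element (ERSE), is the textbook binding site of ATF6 with NF-Y. RefSeq promoters (GRCm38.p6, 250 bases before to 50 after each start) matched 35 of the 42 genes, and the other 7 (Hyou1, Manf, Derl1, Atf6, Sec61a1, Ssr2 and Sec11c) had no entry. The element, CCAAT and CCACG with 9 bases of any kind between them, searched on both strands, was present in 8 of the 35 genes (22.9%) and in 37 of 27025 genes with a promoter in the table (0.137%). It was found in 7 of 13 chaperones, 1 of 5 degradation genes, 0 of 9 sensors and 0 of 8 translocon genes. The related ERSE-II, ATTGG and CCACG with 1 base between them, was found in Herpud1 and Dnajb11 and in 12 of all genes (0.0444%). No member held TGACGTGG, the core of the XBP1 element (0.714% of all genes), and Herpud1 and Trib3 held TGATGNAAN, the ATF4 element (4.5% of all genes). A match describes these letters in this window only. Below, capitals mark the letters of the element, each stretch is written 5′ to 3′ on the strand of its gene, and where the element lies on the opposite strand it reads as CGTGG before ATTGG.
Hspa5: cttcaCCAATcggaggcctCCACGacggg (chr2:34772020-34772048, plus strand)
Hsp90b1: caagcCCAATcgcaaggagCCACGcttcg (chr10:86705633-86705661, minus strand)
Calr: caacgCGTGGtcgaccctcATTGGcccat (chr8:84847070-84847098, minus strand)
Canx: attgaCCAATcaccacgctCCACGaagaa (chr11:50325795-50325823, minus strand)
Pdia6: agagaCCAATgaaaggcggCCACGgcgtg (chr12:17266486-17266514, plus strand)
Dnajc3: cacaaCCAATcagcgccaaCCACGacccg (chr14:118937822-118937850, plus strand)
Creld2: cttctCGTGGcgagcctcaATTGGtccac (chr15:88819515-88819543, plus strand)
Syvn1: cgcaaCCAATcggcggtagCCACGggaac (chr19:6046527-6046555, plus strand)
Herpud1: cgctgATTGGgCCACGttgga (chr8:94386372-94386392, plus strand, ERSE-II)
The elements printed here end between 26 and 194 bases before the annotated start, the nearest in Syvn1 and the farthest in Hsp90b1, whose promoter holds a second copy 89 bases before the start.

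Libraries held 11994158 to 14127919 counts, and 3 counts corresponded to 0.2 to 0.245 CPM (counts per 1000000 of the library's total after TMM scaling). Among 16 neutrophil markers the summed level was 289000 to 354000 CPM in every library, but Ly6g itself lay at 0.491 to 2.13 CPM. Most of the sum was S100a8 (147000 to 228000 CPM) and S100a9 (62900 to 80300 CPM). At week 3 against naïve 4 of the 16 were higher (Cxcr2, Retnlg, Hp and Fpr1) and 4 lower (Camp, Cebpe, Ltf and Ngp). Each count is 25%, against 12% and 9.42% of all genes. Between the weeks 7 were higher (43.8%, against 13% of all genes) and 4 lower (25%, against 9.56%). The 15 markers of early granulocyte precursors summed to 552 and 559 CPM in naïve libraries, 577 and 611 at week 1 and 833 and 955 at week 3. Srgn alone gave 291 and 304, 293 and 276, and 440 and 440 CPM of these sums. Of the 15, 8 rose (53.3%, against 12% of all genes) and 3 (Gfi1, Cebpe and Myb) fell (20%, against 9.42%) at week 3 against naïve. The largest rises were those of Prtn3 (log2 fold change 3.23), Ctsg (2.91), Elane (2.44) and Mpo (2.3). The 17 plasma cell markers summed to 142 and 366, 194 and 219, and 155 and 76.1 CPM in the same order. Of 11 tested, 6 were lower at week 3 against naïve (54.5%, against 9.42% of all genes), among them Mzb1 (log2 fold change -3.37). Tnfrsf13b alone was higher (1.59), which is 9.09%, against 12% of all genes. Of the 17, 1 was at or under 3 counts in every library. The 17 B lineage markers fell from 66.3 to 91.7 CPM in naïve and week 1 libraries to 24.5 and 22.5 at week 3. Against naïve, 14 of 15 were lower at week 3 (93.3%, against 9.42% of all genes). Erythroid markers summed to 587 CPM in week 3 replicate 2 and to 1230 to 1540 in the other libraries. The 15 monocyte and macrophage markers summed to 1130 to 1300 CPM and the 14 T and NK cell markers to 16.3 to 56.8 CPM. The 13 eosinophil, basophil and mast cell markers summed to 1530 and 1320 CPM in naïve and to 896 to 1080 CPM in TB libraries. Most of that sum was Hdc, at 1450 and 1230 CPM in naïve and 850 to 966 CPM in TB libraries. Of 10 tested, 3 (Prg2, Mcpt8 and Cpa3) were higher (30%, against 4.23% of all genes) and 1 (Hdc) lower (10%, against 3.76%) at week 1 against naïve. DESeq2 called 1 higher and 1 lower. At week 3 against naïve 0 were higher (0 at an unadjusted p under 0.05, 0 by DESeq2) and 6 lower (60%, against 9.42% of all genes). The part of these cells in the ER genes was not tested. In such bulk samples fewer cells of a type and less RNA per cell cannot be told apart.

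The 42 genes together took 0.282% to 0.321% of the counts of a library. Per kilobase of exon the naïve level was highest for Hspa5 (124 CPM per kilobase), Sec61b (108) and Atf4 (102), followed by Herpud1 (46.8), P4hb (41.9) and Calr (38). The lowest were Trib3 (0.797), Ern1 (0.836), Pdia4 (1.28), Atf6 (1.42) and Creld2 (1.59), which are sensors, chaperones and a pseudokinase. Hspa5 alone gave 14.3% to 19.1% of all counts of the 42 genes.

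**Figure D1:**
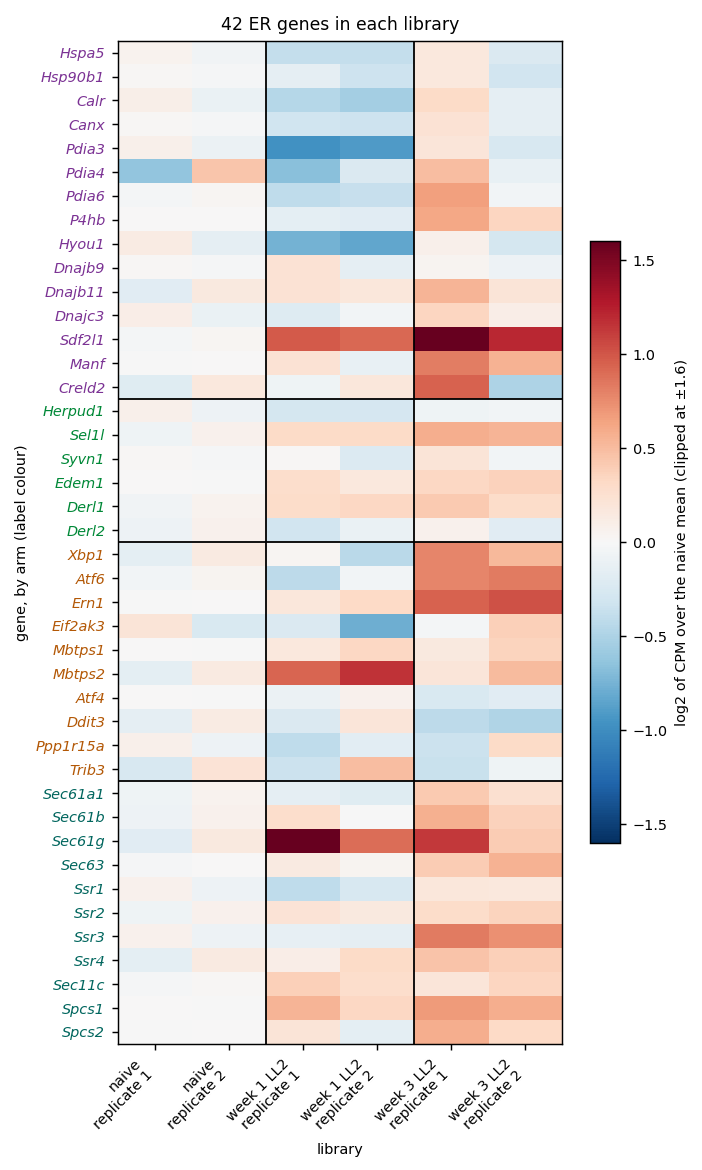
Level of each of the 42 ER genes (rows, grouped by role) in each of the 6 libraries (columns), as the log2 of CPM over the mean of the naïve libraries, with red above and blue below that mean and the scale clipped at ±1.6. Most chaperones are blue at week 1, the translocon genes are red in both week 3 libraries, and the chaperones are redder in week 3 replicate 1 than in replicate 2.

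At 1 week ER genes differed from naïve neutrophils in both directions, at shares near those of all genes. At 3 weeks every difference from naïve that passed the test was a rise. At week 1, 2 of the 42 genes were higher (4.76%, against 4.23% of all genes tested) and 2 were lower (4.76%, against 3.76%, and 7.99% of all genes in either direction), by an edgeR quasi-likelihood test with a Benjamini-Hochberg adjusted p under 0.05. At week 3 against naïve, 17 were higher (40.5%, against 12% of all genes) and 0 lower (9.42% of all genes, and 21.4% in either direction), with 1 lower at an unadjusted p under 0.05. DESeq2 called 13 higher and 0 lower, and 17 was the highest count of any alternative, the others giving 4 to 15. Between the weeks, 13 were higher at week 3 (31%, against 13% of all genes) and 1 lower (2.38%, against 9.56%, and 22.5% in either direction). The median log2 fold change over the 42 genes was -0.01, 0.33 and 0.33 in the 3 comparisons, and 0.01, 0.03 and -0.02 over all genes. Both comparisons with naïve mice share the naïve libraries, and both that involve week 1 share the week 1 libraries. Scaling by library size alone moved the median of all genes to -0.11 at week 3 against naïve and to -0.22 between the weeks. The calls among the 42 then stood at 8 higher and 2 lower, and at 7 higher and 3 lower, while those of all genes went from 1472 to 890 higher and from 1155 to 1672 lower against naïve, and from 1588 to 859 higher and from 1172 to 2133 lower between the weeks. Against naïve P4hb, Edem1, Derl1, Sec61a1, Sec61b, Sec61g, Sec63, Ssr4 and Spcs2 lost their calls by library size, and between the weeks Calr, Manf, Ern1, Eif2ak3, Sec61a1 and Ssr1 did. By DESeq2, Edem1 (adjusted p = 0.101), Sec63 (0.122), Ssr4 (0.101) and Spcs2 (0.0518) lost their calls against naïve. Without naïve replicate 1, 4 of the 42 genes were higher at week 3 rather than 17, and without naïve replicate 2 and week 3 replicate 1 there were 9 and 8. The count over all genes also dropped in these fits, from 1472 to 729, 1069 and 1061. In these fits the remaining library of a group is assumed to vary like the other groups.

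**Figure D2:**
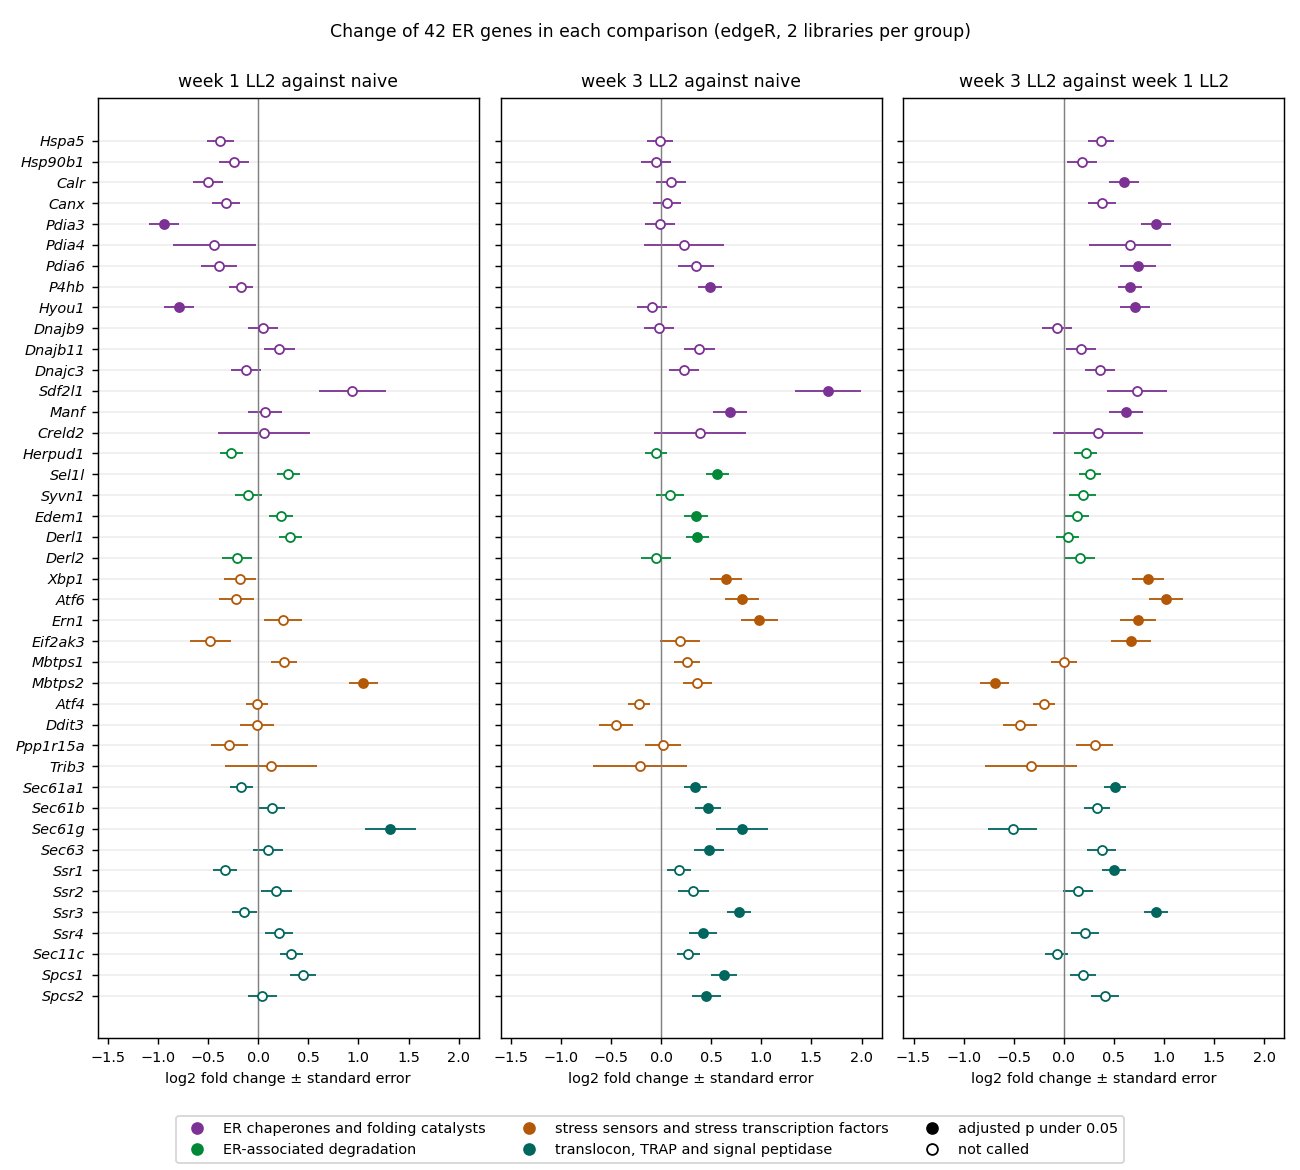
Log2 fold change of each ER gene (x axis, point, with its standard error as the bar) in the 3 comparisons, coloured by role, filled where the adjusted p was under 0.05. Filled points number 4 at week 1, 17 at week 3 against naïve, all to the right of 0, and 14 between the weeks, all to the right of 0 but Mbtps2.

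Of the 3 comparisons, chaperones differed most in that between the weeks. The disulfide isomerase Pdia3 and the BiP partner Hyou1 were lower at 1 week than in naïve mice. Pdia3 and Hyou1 were also among 6 chaperones higher at 3 weeks than at 1. At week 1, 2 of 15 fell (13.3%, against 3.76% of all genes) and 0 rose (1 at an unadjusted p under 0.05, 0 by DESeq2). DESeq2 called 4 lower. In 8 of the 15 both week 1 libraries lay below both naïve libraries (26.1% of all genes). The median log2 fold change was -0.24, beside 0.01 over all genes. At week 3 against naïve 3 of 15 rose (20%, against 12% of all genes) and 0 fell (0 at an unadjusted p under 0.05, 0 by DESeq2). The median was 0.23, which was 0.03 over the members with at least 10 CPM. Between the weeks 6 of 15 rose (40%, against 13% of all genes) and 0 fell (0 at an unadjusted p under 0.05, 0 by DESeq2). In 11 of 15 both week 3 libraries lay above both week 1 libraries (31.5% of all genes), and the median was 0.60, beside -0.02 over all genes. Within week 3, all 15 chaperones were higher in replicate 1 than in replicate 2, by a median of 0.41 on the log2 scale, whereas 49.1% of all genes were higher in replicate 1. Without week 3 replicate 1 the median against naïve turned to -0.10 and that between the weeks was 0.27. Of the marker sums in these replicates 1 and 2, erythroid markers were at 1370 and 587 CPM, plasma cell markers at 155 and 76.1 CPM and precursor markers at 833 and 955 CPM, and their part in the gap was not tested.

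Pdia3 (chr2:121413775-121438687, plus strand), a disulfide isomerase that works on glycoproteins held by calnexin and calreticulin, was at 75 and 66.6 CPM in naïve libraries, 36.3 and 37.8 at week 1 and 81.2 and 59.3 at week 3. The week 1 libraries lay below every other library, and naïve and week 3 overlapped. The log2 fold change was -0.94 ± 0.152 (SE, adjusted p = 0.00336) at week 1 and 0.92 ± 0.152 (adjusted p = 0.000778) from week 1 to week 3. Week 3 differed from naïve by -0.01 (adjusted p = 0.97). Hyou1 (chr9:44379490-44392369, plus strand), an exchange factor and chaperone beside BiP, went the same way, with 54.9 and 45.1 CPM, then 29.7 and 28, then 52.9 and 41.3. Its week 1 libraries were again the lowest, by -0.79 ± 0.152 against naïve (adjusted p = 0.00809) and with a rise of 0.71 ± 0.152 between the weeks (adjusted p = 0.00475). Without naïve replicate 1 the week 1 call was lost for Pdia3 (adjusted p = 0.0632) and for Hyou1 (0.111), and that of Hyou1 also without week 1 replicate 1 (0.0505) or 2 (0.071). The later rise of Hyou1 was lost without week 1 replicate 2 (0.0573).

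Calr, the lectin chaperone calreticulin, measured 117 and 102 CPM in naïve, 79.5 and 75.1 at week 1 and 135 and 98.7 at week 3. Both week 1 libraries were below the other 4. The rise between the weeks passed the test (log2 fold change 0.60 ± 0.148, adjusted p = 0.0111), whereas the earlier difference of -0.50 did not (adjusted p = 0.0562). Pdia6, another disulfide isomerase, had 44.3 and 46.1, 34.1 and 35, and 71.1 and 43.9 CPM. Week 3 replicate 1 stood far above all other libraries of Pdia6, and the group rose by 0.74 ± 0.182 between the weeks (adjusted p = 0.0111). P4hb, the protein disulfide isomerase PDI, was at 120 and 120, 108 and 106, and 185 and 152 CPM. Both week 3 libraries of P4hb exceeded all others, and it rose against week 1 (0.66 ± 0.122, adjusted p = 0.00184) and against naïve (0.49 ± 0.122, adjusted p = 0.0121). The rise of Calr between the weeks was lost without week 1 replicate 1 (adjusted p = 0.059), week 1 replicate 2 (0.105) or week 3 replicate 1 (0.131), and that of Pdia6 without the same libraries (0.0802, 0.0661 and 0.149). P4hb lost its call against naïve without naïve replicate 1 (0.0875), naïve replicate 2 (0.0509) or week 3 replicate 1 (0.123), and kept that against week 1 without each library.

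Sdf2l1 (chr16:17130138-17132383, minus strand), which assists BiP and its J-domain partners, had the largest rise of any of the 42 genes at week 3. It measured 2.13 and 2.21 CPM in naïve, 4.27 and 4.1 at week 1 and 8.91 and 4.99 at week 3, so that the 3 groups did not overlap. The log2 fold change against naïve was 1.67 ± 0.329 at week 3 (adjusted p = 0.00283), a call kept without each library, and 0.94 ± 0.338 at week 1 (adjusted p = 0.106). Manf, a secreted ER stress protein, stood at 16 and 16.2, 18.9 and 14.8, and 28.3 and 23.6 CPM. It was highest in both week 3 libraries, by 0.69 ± 0.167 over naïve (adjusted p = 0.0104) and 0.62 ± 0.165 over week 1 (adjusted p = 0.0159). The call of Manf against naïve was lost without naïve replicate 1 (0.0854), naïve replicate 2 (0.0511) or week 3 replicate 1 (0.0731), and that against week 1 without week 1 replicate 2 (0.193) or week 3 replicate 1 (0.106). Exons of Manf overlap those of Dcaf1 (1.64 CPM) on the opposite strand.

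Hspa5 (chr2:34771970-34777547, plus strand) encodes BiP, the main ER chaperone of the HSP70 family and the classical readout of the unfolded protein response. Its level was 547 and 503 CPM in naïve, 404 and 402 at week 1 and 592 and 447 at week 3. Both week 1 libraries were below all others, but no difference passed the test. The log2 fold change was -0.38 at week 1 (adjusted p = 0.0995), -0.01 at week 3 against naïve (0.955) and 0.37 between the weeks (0.0665). Hsp90b1, the ER member of the HSP90 family, Canx, the membrane lectin calnexin, and the J-domain protein Dnajc3 also passed no test, nor did Pdia4, Dnajb9, Dnajb11 and Creld2. Of these, Pdia4 and Creld2 were measured at 1.54 to 4.34 CPM, where the standard errors of 0.401 to 0.461 leave only large differences detectable. The 7 chaperones with an ERSE printed above had a median of -0.32 at week 1 (-0.50 to 0.06), 0.10 at week 3 against naïve (-0.05 to 0.39) and 0.37 between the weeks (0.18 to 0.74). The 6 with a promoter but no such element had medians of -0.06, 0.30 and 0.66. Both groups held genes that rose between the weeks, Calr and Pdia6 among the first and Pdia3 and P4hb among the second.

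**Figure D3:**
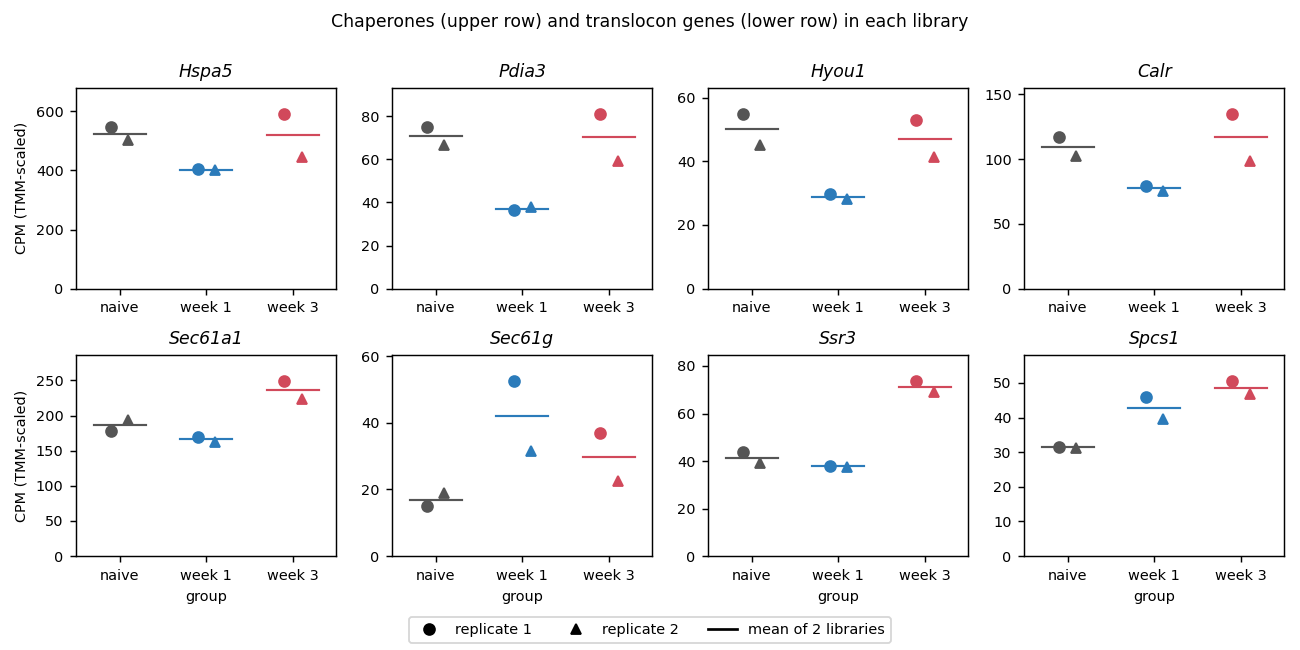
CPM of 4 chaperones (upper row) and 4 translocon or signal peptidase genes (lower row) in each library, with circles for replicate 1, triangles for replicate 2 and bars for the group mean. Pdia3, Hyou1, Calr and Hspa5 dip in both week 1 libraries, whereas Ssr3 is flat until its rise at week 3. The group mean of Sec61g is highest at week 1, with libraries that overlap those of week 3.

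Among genes of ER-associated degradation, 3 were slightly higher at 3 weeks than in naïve mice. At week 1, 0 of 6 rose (2 at an unadjusted p under 0.05, 0 by DESeq2) and 0 fell (1 and 0 in the same order). At week 3 against naïve 3 rose (Sel1l, Edem1 and Derl1, 50%, against 12% of all genes) and 0 fell (0 and 0). The median was 0.22 beside 0.03 over all genes. Between the weeks 0 rose (1 and 0) and 0 fell (0 and 0), with a median of 0.17 that was -0.03 when scaled by library size alone, beside -0.22 over all genes. Sel1l, the scaffold of the HRD1 ubiquitin ligase, was at 65.9 and 72.3 CPM in naïve, 85.2 and 85.5 at week 1 and 103 and 101 at week 3. The 3 groups of Sel1l did not overlap, and week 3 exceeded naïve by 0.56 ± 0.115 on the log2 scale (adjusted p = 0.00369, and 0.0534 without naïve replicate 1).

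Edem1, a lectin that passes misfolded glycoproteins on for degradation, was at 50.8 and 50.3 CPM in naïve, 61.5 and 56.6 at week 1 and 63.7 and 65.5 at week 3. Derl1, a membrane protein of the retrotranslocation channel, was at 88.3 and 95.9, 113 and 116, and 123 and 113 CPM. In both genes every library from TB mice lay above both naïve libraries, and the differences at week 3 were small, 0.35 ± 0.119 (adjusted p = 0.049) for Edem1 and 0.36 ± 0.115 (adjusted p = 0.0413) for Derl1. Neither call held when any of the 6 libraries was left out. Leaving out naïve, week 1 and week 3 replicates 1 and 2 in turn gave adjusted p-values of 0.179, 0.13, 0.0988, 0.104, 0.117 and 0.171 for Edem1 and 0.246, 0.0603, 0.0922, 0.096, 0.2 and 0.063 for Derl1. Syvn1, the HRD1 ligase itself, Derl2 and Herpud1, which holds the HRD1 complex together, passed no test, with log2 fold changes of 0.09, -0.05 and -0.05 at week 3 against naïve.

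Transcripts of the sensors IRE1 and ATF6 and of the factor XBP1 were higher in three-week LL2 mice than in both other groups, while those of ATF4 and CHOP were not. At week 1, 1 of the 10 genes rose (Mbtps2, 10%, against 4.23% of all genes) and 0 fell (1 at an unadjusted p under 0.05, 0 by DESeq2). At week 3 against naïve 3 rose (30%, against 12% of all genes) and 0 fell (1 and 0). Between the weeks 4 rose (40%, against 13%) and 1 fell (10%, against 9.56%). The median log2 fold change was -0.01, 0.22 and 0.16 in the 3 comparisons. With scaling by library size alone the medians at week 1 and between the weeks were 0.04 and -0.04, beside 0.06 and -0.22 over all genes. Without week 3 replicate 2 the median between the weeks was -0.07 and without week 3 replicate 1 it was 0.36.

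Ern1 (chr11:106394650-106487852, minus strand), which encodes IRE1, the kinase and endonuclease that splices Xbp1 mRNA, was at 6.8 and 6.87 CPM in naïve, 7.73 and 8.49 at week 1 and 13.1 and 13.9 at week 3. The groups did not overlap. The replicates of a group were close together beside the rise at week 3, which was 0.98 ± 0.185 over naïve (adjusted p = 0.00215) and 0.74 ± 0.18 over week 1 (adjusted p = 0.0104). Xbp1 (chr11:5520659-5525893, plus strand), the transcription factor made active by that splicing, was at 67.3 and 82.9, 76.5 and 55.7, and 129 and 108 CPM. Naïve and week 1 overlapped for Xbp1 and week 3 lay above both, by 0.65 ± 0.162 (adjusted p = 0.012) and 0.84 ± 0.163 (adjusted p = 0.00253). These counts per gene do not separate the spliced from the unspliced Xbp1 mRNA. Atf6 (chr1:170704674-170867771, minus strand), the membrane-bound transcription factor, was at 12.8 and 13.5, 9.87 and 12.8, and 22.6 and 23.4 CPM, with both week 3 libraries far above the rest. It rose by 0.81 ± 0.168 over naïve (adjusted p = 0.00404) and 1.02 ± 0.168 over week 1 (adjusted p = 0.000773). Calls kept without each library were those of Ern1 against naïve and Atf6 against week 1. Without naïve replicate 1 the calls against naïve were lost for Xbp1 (adjusted p = 0.156) and Atf6 (0.052), that of Xbp1 also without week 3 replicate 1 (0.0742). Against week 1 the call of Ern1 was lost without week 1 replicate 1 (0.0868) and that of Xbp1 without week 1 replicate 2 (0.0502).

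Eif2ak3 (chr6:70844515-70905245, plus strand), which encodes the kinase PERK, was at 42.2 and 30.8 CPM in naïve, 31.2 and 21.2 at week 1 and 35.6 and 47.6 at week 3. Its replicates were far apart in every group and naïve overlapped with both other groups. The rise between the weeks passed the test (0.67 ± 0.204, adjusted p = 0.0324) but not without week 1 replicate 2 (0.307) or week 3 replicate 2 (0.197). The difference from naïve at week 3 was 0.19 (adjusted p = 0.567). Atf4 (chr15:80255184-80257541, plus strand), the factor translated when PERK and related kinases slow translation, was at 242 and 238, 224 and 252, and 203 and 211 CPM. Ddit3 (chr10:127290774-127296288, plus strand), which encodes CHOP, was at 22.5 and 27, 21.1 and 28.2, and 18.5 and 17.7 CPM. For both genes the week 3 libraries were the lowest of the 6. The differences from naïve did not pass the test, with -0.22 ± 0.112 for Atf4 (adjusted p = 0.196) and -0.45 ± 0.171 for Ddit3 (adjusted p = 0.0802). Those between the weeks, -0.20 (adjusted p = 0.213) and -0.44 (adjusted p = 0.08), did not pass it either. Scaled by library size alone they did, at week 3 against naïve with -0.36 for Atf4 (adjusted p = 0.0373) and -0.59 for Ddit3 (adjusted p = 0.0244). Ddit3 shares 68 exon bases with Mars on the opposite strand (12 CPM).

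Ppp1r15a, the phosphatase subunit GADD34 that restores translation, was at 31.7 to 52.3 CPM and Trib3, a pseudokinase induced by ATF4 and CHOP, at 1.32 to 2.38 CPM over the 6 libraries. Both week 1 libraries of Ppp1r15a lay below both naïve libraries and overlapped with week 3, the groups of Trib3 overlapped, and neither gene passed a test. Mbtps1, the site-1 protease that first cuts ATF6, had 33.1 and 33 CPM in naïve and 36.9 to 42.3 in TB libraries, by 0.26 at both weeks (adjusted p = 0.266 and 0.187).

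Mbtps2 (chrX:157535371-157598715, minus strand), the site-2 protease that makes the second cut in ATF6 and in SREBP factors, moved apart from the other sensors. It was at 88.8 and 109 CPM in naïve, 189 and 220 at week 1 and 113 and 141 at week 3, so that week 1 stood far above the rest. The rise at week 1 was 1.05 ± 0.145 (adjusted p = 0.00139) and the fall to week 3 was -0.69 ± 0.144 (adjusted p = 0.00399), and both calls were kept without each library. Mbtps2 shares 2867 exon bases on the same strand with Yy2, whose counts were 1.79% of those of Mbtps2. Reads from the shared exons cannot be told apart by gene.

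**Figure D4:**
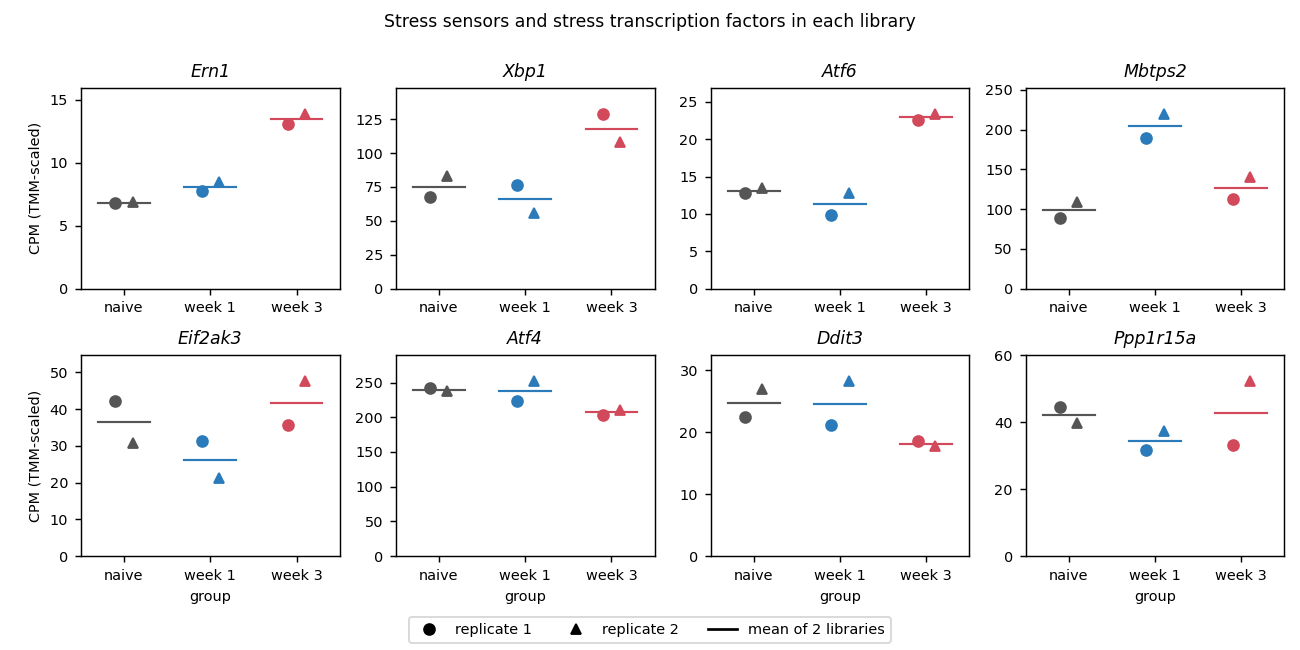
CPM of 8 stress sensors and stress transcription factors in each library, with circles for replicate 1, triangles for replicate 2 and bars for the group mean. Ern1, Xbp1 and Atf6 are highest in both week 3 libraries, Mbtps2 is highest in both week 1 libraries, and Atf4 and Ddit3 are lowest at week 3.

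Of the 4 roles, the translocon held the largest share of genes that rose against naïve at 3 weeks (8 of 11, 72.7%, against 12% of all genes). Without naïve replicate 1, Ssr3 and Spcs1 alone of these 8 kept that call. At week 1, 1 of 11 rose (Sec61g, 9.09%, against 4.23% of all genes) and 0 fell (1 at an unadjusted p under 0.05, 0 by DESeq2). In the later comparison with naïve 8 of 11 rose and 0 fell (0 and 0), with 5 rises by DESeq2, and in all 11 both week 3 libraries lay above both naïve libraries, against 32.1% of all genes. The median was 0.45, and 0.30 when scaled by library size alone, where the median of all genes was -0.11. Between the weeks 3 of 11 rose (27.3%, against 13% of all genes) and 0 fell (0 and 0), with a median of 0.33. The median of the 11 genes over the naïve mean was 0.47 in week 3 replicate 1 and 0.37 in replicate 2. For the chaperones it was 0.35 and -0.09.

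**Figure D5:**
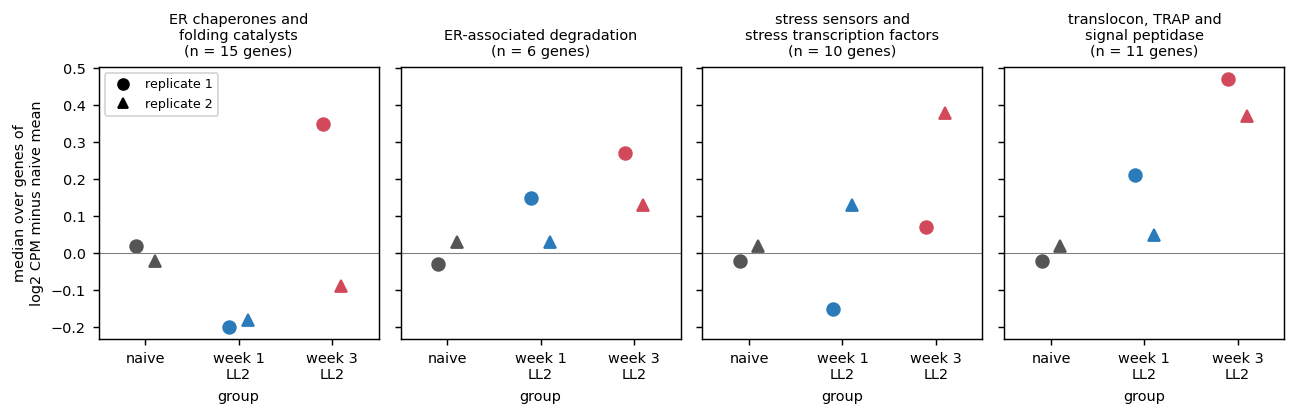
Median over the genes of each role of log2 CPM minus the naïve mean (y axis) in each library, by group (x axis), with circles for replicate 1 and triangles for replicate 2. The translocon genes lie at 0.47 and 0.37 in the week 3 libraries, the chaperones near -0.2 in both week 1 libraries and at 0.35 and -0.09 at week 3.

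Ssr3 (chr3:65379655-65392623, minus strand), the gamma subunit of the TRAP complex that helps chains enter the SEC61 channel, was at 43.6 and 39.3 CPM in naïve, 37.9 and 37.4 at week 1 and 73.6 and 69.1 at week 3. Both week 3 libraries were far above the other 4, by 0.78 ± 0.122 over naïve (adjusted p = 0.000567) and 0.92 ± 0.122 over week 1 (adjusted p = 0.00016), and both calls were kept without each library. Its partner Ssr1 was at 85.1 and 76.6, 61.1 and 67.9, and 91.8 and 90.8 CPM. It was lowest at week 1 and rose by 0.50 ± 0.12 between the weeks (adjusted p = 0.00902, and 0.116 without week 1 replicate 1). Ssr4, the delta subunit, was at 32.3 and 39.9, 38.9 and 44.5, and 49.6 and 46.9 CPM. Its week 3 libraries were the highest, by 0.42 ± 0.14 over naïve (adjusted p = 0.0482). The call was kept without naïve replicate 2 (0.0337) but lost without naïve replicate 1 (0.366), week 1 replicate 1 (0.0876) or 2 (0.0849), or week 3 replicate 1 (0.161) or 2 (0.0914). Ssr2 passed no test (0.32 at week 3 against naïve, adjusted p = 0.161).

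Sec61a1, the pore-forming subunit of the translocon, was at 178 and 194 CPM in naïve, 169 and 163 at week 1 and 249 and 223 at week 3. Week 3 lay above both other groups, by 0.51 ± 0.114 over week 1 (adjusted p = 0.00628) and 0.34 ± 0.114 over naïve (adjusted p = 0.049). Sec61b, the beta subunit, was at 131 and 145, 167 and 137, and 204 and 178 CPM, highest at week 3, by 0.47 ± 0.13 over naïve (adjusted p = 0.0201). The call of Sec61a1 against naïve did not hold when any of the 6 libraries was left out (adjusted p between 0.0568 without week 3 replicate 2 and 0.278 without naïve replicate 1). Its call against week 1 was lost without week 1 replicate 1 (0.0521), week 1 replicate 2 (0.0863) or week 3 replicate 1 (0.0502). Sec61b lost its call without naïve replicate 1 (0.175) or week 3 replicate 1 (0.127).

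Sec61g (chr11:16500530-16508484, minus strand), the short gamma subunit, differed in pattern from its partners. It was at 14.9 and 18.9 CPM in naïve, 52.5 and 31.4 at week 1 and 36.9 and 22.4 at week 3. Every TB library exceeded both naïve libraries, the week 1 and week 3 libraries overlapped, and in each week replicate 1 was well above replicate 2. The log2 fold change was 1.32 ± 0.255 at week 1 (adjusted p = 0.00851) and 0.81 ± 0.258 at week 3 (adjusted p = 0.0397). The difference between the weeks of -0.51 did not pass the test (adjusted p = 0.16). The week 1 call was lost without naïve replicate 1 (0.146) or week 1 replicate 1 (0.094), and the week 3 call without naïve replicate 1 (0.286), naïve replicate 2 (0.0807) or week 3 replicate 1 (0.317).

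Sec63, a J-domain partner of BiP at the channel, was at 17.2 and 17.5 CPM in naïve, 19.2 and 17.9 at week 1 and 22.9 and 25.6 at week 3. Its week 3 libraries lay above the other 4, by 0.48 ± 0.147 over naïve (adjusted p = 0.0325). Of the 6 fits that leave out a library, the call was kept only without week 3 replicate 1 (0.0462). In all, 9 of 14 alternatives ended it. The adjusted p was 0.159 without naïve replicate 1, 0.0936 without naïve replicate 2, 0.0631 and 0.0608 without week 1 replicates 1 and 2 and 0.17 without week 3 replicate 2. Spcs1, a subunit of signal peptidase, was at 31.5 and 31.3, 45.9 and 39.6, and 50.5 and 46.8 CPM. The 3 groups of Spcs1 did not overlap, and the rise at week 3 was 0.63 ± 0.13 (adjusted p = 0.0038), kept without each library, while that at week 1 was 0.45 (adjusted p = 0.053). Spcs1 shares 252 exon bases with Glt8d1 on the opposite strand (5.35 CPM). Spcs2, another subunit, was at 59 and 59.7, 68.6 and 53.4, and 88.5 and 73.8 CPM. It was highest at week 3, by 0.45 ± 0.144 over naïve (adjusted p = 0.0401), a call lost without naïve replicate 1 (0.193), naïve replicate 2 (0.119) or week 3 replicate 1 (0.238) and in 7 of 14 alternatives in all, among them length and GC offsets (0.0548). Sec11c, a catalytic subunit, passed no test (0.27 at week 3 against naïve, adjusted p = 0.123).

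Other folding, degradation and targeting genes were read from lists beside the 42. Among 30 other folding and disulfide genes 3 rose and 3 fell at week 3 against naïve (10% each, against 12% and 9.42% of all genes, median -0.00), which is near the background. Between the weeks 6 rose (20%, against 13%) and 1 fell (3.33%, against 9.56%). Qsox1, a sulfhydryl oxidase, was the largest of these, at 174 and 239 CPM in naïve, 145 and 169 at week 1 and 900 and 541 at week 3 (log2 fold change 1.80 ± 0.209, adjusted p = 6.33e-05). The cyclophilin Ppib rose by 0.67 over naïve, the ER reductase Dnajc10 by 0.71 and Calu by 0.64 over week 1, and the thioredoxin-like Tmx4 fell at both weeks (-0.56 and -0.64 against naïve). Of 31 other degradation genes 5 rose (16.1%, against 12% of all genes) and 0 fell at week 3 against naïve (0 lower at an unadjusted p under 0.05, 0 by DESeq2), with a median of 0.20. The largest rises were those of the ubiquitin ligases Rnf103 (0.96) and Rnf5 (0.77) and of Erlin1 (0.84). In the same list 7 rose between the weeks (22.6%, against 13%), among them H13 (0.67). At week 1 only Ube2j2 was called among these 31, with -0.54.

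Of 31 other genes of targeting, translocation and signal peptidase 7 rose (22.6%, against 12% of all genes) and 0 fell at week 3 against naïve (0 lower at an unadjusted p under 0.05, 0 by DESeq2), with a median of 0.17. Spcs3, a further signal peptidase subunit, measured 4.98 and 3.6 CPM in naïve, 15.3 and 8.27 at week 1 and 16 and 15.4 at week 3. Like Sec61g and Spcs1 it was above naïve in all 4 TB libraries, by 1.46 ± 0.28 at week 1 (adjusted p = 0.00809) and 1.87 ± 0.278 at week 3 (adjusted p = 0.00039). Srp9, of the signal recognition particle, rose by 1.01 and Get4, of the tail-anchor pathway, by 0.77 at week 3 over naïve, and Mmgt1, of the ER membrane complex, by 1.30 over week 1. Of 12 oligosaccharyltransferase subunits, which glycosylate the entering chain, 3 rose at week 3 against naïve (25%, against 12% of all genes, with Ost4 by 1.2, Krtcap2 by 0.71 and Ddost by 0.56) and 0 fell (0 at an unadjusted p under 0.05, 0 by DESeq2). Ostc rose by 0.48 between the weeks.

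Around ATF4 the genes of the integrated stress response moved in both directions. Of 39 tested, 7 rose (17.9%, against 12% of all genes) and 5 fell (12.8%, against 9.42%) at week 3 against naïve. Between the weeks 9 rose (23.1%, against 13%) and 4 fell (10.3%, against 9.56%), and the medians were 0.10 and 0.27. The shares that fell were close to those of all genes. Slc7a5, a transporter of large neutral amino acids, was at 2.06 and 1.88 CPM in naïve, 1.33 and 0.671 at week 1 and 14.7 and 13.1 at week 3 (log2 fold change over naïve 2.82 ± 0.288, adjusted p = 2.27e-05). Slc7a11, the cystine transporter, went the other way, from 34.3 and 27.2 to 25.1 and 18.6 and to 6.35 and 8.07 CPM (-2.09 ± 0.202, adjusted p = 1.43e-05). The transcription factor Atf3 also fell, from 14.4 and 15.3 to 10.7 and 14.2 and to 3.8 and 5.07 CPM (-1.74 ± 0.219, adjusted p = 0.000127). At week 1, Aldh1l2 rose by 1.30 and the threonyl-tRNA synthetase Tars fell by 0.77 on the log2 scale.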

How the data were processed

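The authors selected Ly6G+ BM cells on beads, prepared total RNA libraries and quantified single-end reads on the mouse genome mm10. The labels list Bowtie2, DESeq2 and RSEM 1.2.31, and the methods name another RSEM version and another read length. The deposited table holds RSEM's expected count of each gene, given in whole numbers, for 2 libraries per group, and it was not normalized between libraries. RSEM splits reads shared by near-identical genes by estimate, and the use of strand in counting is not given in the sources used here.

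Symbols and positions came from GENCODE M21 (GRCm38), which matched 37570 of 38887 identifiers. Genes with low counts were removed by filterByExpr, which left 12259. After TMM scaling, edgeR 4.0.16 in R 4.3.3 compared the groups by its quasi-likelihood F test, with scaling factors from 0.9133 to 1.072, in 1 model of all 6 libraries with Benjamini-Hochberg adjustment over all genes at 0.05. This differs from the authors' choice of DESeq2 between pairs of groups, and DESeq2 1.42.0 was run as an alternative on all 6 libraries. The test was tried on simulated counts before use. CPM are TMM-scaled. Standard errors (±) were derived from the log2 fold change and the F statistic of the quasi-likelihood test, so they include the spread between libraries. Limits of depth cover counting error only, and 3 counts served as the floor.

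Members and lists were chosen with earlier results of these data known. Every gene of the 42 called in any comparison and 6 sensors and factors are given per library, and from each further list up to 3 called genes per comparison with the largest change. Marker lists were summarised and a few of their genes named. Alternatives were DESeq2, the compared groups only, other scaling and filters, a threshold of 0.01, length and GC offsets, a replicate block, and leaving out each library. The labels do not say whether libraries of the same replicate number were handled together. Between groups, r of the deviations of replicate 1 from the group mean was 0.0101 to 0.0379. Such an r over all genes cannot exclude a batch that touches some of them.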

Additional observations from a re-analysis of the deposited data

Results flagged for a closer look

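For 14 of the 42 ER genes the change from naïve at 3 weeks differed from the change at 1 week by the edgeR test between the weeks (adjusted p under 0.05), against 22.5% of all genes in either direction. The naïve mean cancels in this difference, so these are the calls between the weeks given above and not a further result. The difference of the log2 fold changes, 3 weeks minus 1 week, was 1.02 for Atf6, 0.84 for Xbp1, 0.74 for Ern1 and 0.67 for Eif2ak3 among the sensors. Among the chaperones it was 0.92 for Pdia3, 0.74 for Pdia6, 0.71 for Hyou1, 0.66 for P4hb, 0.62 for Manf and 0.60 for Calr. In the translocon it was 0.92 for Ssr3, 0.51 for Sec61a1 and 0.50 for Ssr1. The only one of the 14 with a smaller change at 3 weeks was Mbtps2, with -0.69.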

How the results depend on the processing

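Of 46 results on single genes, recomputed under the alternatives into 643 values, 507 kept direction and side of the threshold, 114 lost the call, 12 gained one and 10 changed sign, all 10 on differences under 0.2 that were not called. The sign changes were Xbp1 at week 1 (-0.44 to 0.02 on leaving out a library, highest without week 1 replicate 2), Atf4 at week 1 (0.04 by library size, 0.04 with at least 10 CPM, 0.07 without week 1 replicate 1), Ddit3 at week 1 (0.05, 0.04, and -0.23 to 0.18 on leaving out a library, with 0.13 without naïve replicate 2) and Eif2ak3 at week 3 against naïve (-0.01 without naïve replicate 2, -0.03 without week 3 replicate 2). Calls at week 1 against naïve were 4 higher with at least 10 CPM, and 4 lower by DESeq2, by edgeR on the 2 groups and with length and GC offsets, and 5 lower with no filter. Leaving out a library gave 1 to 2 higher and 0 to 4 lower. At week 3 against naïve, 8 were higher and 2 lower by library size, 6 higher at 0.01, 12 to 13 higher under DESeq2, its size factors, the 2 groups only, other filters and offsets, and 1 lower with no filter, with at least 10 CPM and with offsets, and 4 to 14 higher on leaving out a library. Between the weeks, 7 were higher and 3 lower by library size, 8 higher at 0.01, 3 lower with no filter and with at least 10 CPM, and 6 to 16 higher and 1 to 2 lower on leaving out a library. With at least 10 CPM the chaperone median was 0.03 at week 3 against naïve and 0.39 between the weeks, that of degradation 0.08 and of the translocon 0.23 between the weeks. By library size the medians between the weeks were 0.39 for chaperones, -0.03 for degradation, -0.04 for sensors and 0.13 for the translocon, and against naïve 0.07 for degradation and 0.30 for the translocon. With offsets the translocon median at week 1 was 0.03. On leaving out a library the medians at week 1, at week 3 against naïve and between the weeks lay from -0.24 to -0.21, from -0.10 to 0.36 and from 0.27 to 0.80 for chaperones, from 0.02 to 0.15, from 0.14 to 0.28 and from 0.12 to 0.24 for degradation, from -0.16 to 0.13, from 0.06 to 0.38 and from -0.07 to 0.36 for sensors, and from 0.04 to 0.21, from 0.37 to 0.51 and from 0.21 to 0.40 for the translocon. The causes were not tested. The labels give no pairing by replicate number. With a replicate block 2 genes were called higher and 3 lower at week 1, 15 and 0 at week 3 against naïve and 14 and 1 between the weeks. Under it 43 of 46 results kept direction and side of the threshold while 3 lost the call.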

Other observations

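Genes of export from the ER, which carry folded cargo to the Golgi, were tested beside the 42. Of 30 tested, 6 rose (20%, against 12% of all genes) and 1 fell (3.33%, against 9.42%) at week 3 against naïve, with a median of 0.25. Between the weeks 6 rose (20%, against 13%) and 3 fell (10%, against 9.56%). The cargo receptors Tmed2, at 54.5 and 59.9 CPM in naïve, 76.5 and 56.9 at week 1 and 104 and 90.7 at week 3, and Tmed7 rose by 0.77 and 0.73 over naïve, and Arfgap3 by 0.67. Between the weeks the cargo receptor Surf4 rose by 0.66 and Sec24d by 1.88, the latter at 0.667 to 3.56 CPM over the 6 libraries, whereas Tmed3 fell by 0.87 on the log2 scale.

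Srebf1, whose protein is cut by the same site-2 protease as ATF6, was at 4.9 and 6.13 CPM in naïve, 6.93 and 6.18 at week 1 and 15.4 and 15.5 at week 3. It was the only gene of 19 other ER membrane factors and regulators called against naïve (log2 fold change 1.49 ± 0.198, adjusted p = 0.000202). That is 5.26%, against 12% of all genes higher at week 3. Between the weeks 6 of the 19 rose (31.6%, against 13% of all genes) and 0 fell (1 at an unadjusted p under 0.05, 0 by DESeq2). Insig1, which retains SREBP factors in the ER, rose by 0.85 and Bcl2l11 by 0.72 between the weeks.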
